A study of Mus musculus with 15 samples.

Results

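The enzymes that make fatty acids and assemble them into triglycerides were followed through 40 named genes. They were taken from a list of gene symbols and found in the GENCODE M39 annotation of the mouse genome (build GRCm39), which holds 21770 protein-coding genes. A gene was counted as marked when a peak of histone H3 trimethylated at lysine 4 (H3K4me3) overlapped the 2000 bp on either side of any of its annotated transcript starts, and the 40 genes have 523 such starts. By this rule 30 of the 40 were marked in WT, 34 after 2HG and 33 in CLPP-KO cells, and every gene marked in WT was marked in the other conditions as well.

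H3K4me3 was mapped by ChIP–seq in mBA cells, which the methods describe as brown preadipocytes immortalized with SV40 large T antigen, from animals of both sexes pooled, and then differentiated, whereas the sample labels call them primary. WT cells were left untreated, WT + 2HG cells received octyl d-2HG (a cell-permeable form of the metabolite 2-hydroxyglutarate, in DMSO) at 500 µM for 72 h, and CLPP-KO cells lack CLPP, the proteolytic subunit of a protease of the mitochondrial matrix. All cells grew in high-glucose medium without pyruvate, and only the CLPP-KO cells were given uridine, so that genotype and uridine cannot be told apart. Each condition had 4 ChIP samples and 1 input, and the authors called its peaks on the 4 samples together, which leaves 1 list per condition, no spread between replicates and no test between conditions.

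In lipogenesis, citrate leaves the mitochondria and is cleaved to acetyl-CoA, which is carboxylated to malonyl-CoA and built up to palmitate by fatty acid synthase. Elongases and desaturases then shape the chain, acyl-CoA synthetases activate it, and acyltransferases and a phosphatase add it to a glycerol backbone to give triglyceride, the content of the lipid droplet. Brown fat makes fatty acids as well as burning them, and H3K4me3 is a mark of active and poised promoters.

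Each peak carries an area under the curve of −log10 p, which is not scaled between lists. It was therefore turned into a percentile within its own list, so that 95 means stronger than or equal to 95% of that list's peaks. A gene with several promoter peaks is represented by the strongest. The WT list held 12342 peaks, that of WT + 2HG 14059 and that of CLPP-KO 15118, and the smallest area was 200.0 in each of them. The percentile of a gene therefore depends on how many weak peaks a list holds. Over the 11021 protein-coding genes marked in all lists its median was 59.8 in WT, 64.8 after 2HG and 67.0 in CLPP-KO. For that reason each gene was also ranked among these 11021 genes alone, which gives every list the same denominator and is called the same-gene percentile. In chromatin from many cells, a weaker mark in each cell and a mark in fewer cells cannot be told apart. Among 14 markers of brown adipocyte identity, 5, 8 and 9 were marked in the order WT, WT + 2HG and CLPP-KO, which is the order of all triplets of values that follow, and Cebpa, Cebpb, Prdm16, Pparg and Zic1 were marked in each, whereas Ucp1, Adipoq, Fabp4, Dio2 and Ppargc1a were marked in none. Markers of skeletal muscle were marked for 1, 1 and 3 of 6 genes, respectively, those of endothelium for 1 of 4 in every list, those of neurons for 1, 1 and 2 of 4, and those of immune cells for 0 of 5 in every list, and the part of these differences in the results was not tested. The Clpp promoter was marked in all lists, at percentiles of 39.9, 45.2 and 43.4, which does not check the knockout, since a mark at the start of a gene does not show its product.

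To show the range of promoter sequence among the members, 5 are printed, from one of the strongest promoters to genes without a peak. Each gives the 250 bases before the start on the gene's own strand in GRCm39, with every CpG dinucleotide in capitals. Slc25a1 (chr16:17746246-17746495, minus strand, 18 CpG) lay above the percentile 92 in every list. Elovl2 (chr13:41374113-41374362, minus strand, 17 CpG) was marked outside WT only. Scd1 (chr19:44396341-44396590, minus strand, 5 CpG) had no peak in WT and a very weak one in the other lists. Thrsp (chr7:97066938-97067187, minus strand, 5 CpG) and Scd3 (chr19:44191458-44191707, plus strand, 0 CpG) were unmarked throughout.
Slc25a1: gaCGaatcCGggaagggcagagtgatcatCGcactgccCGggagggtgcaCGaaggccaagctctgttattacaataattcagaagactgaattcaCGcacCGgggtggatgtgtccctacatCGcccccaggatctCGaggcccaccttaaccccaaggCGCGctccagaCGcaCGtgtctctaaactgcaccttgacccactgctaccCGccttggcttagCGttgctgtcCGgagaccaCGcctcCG
Elovl2: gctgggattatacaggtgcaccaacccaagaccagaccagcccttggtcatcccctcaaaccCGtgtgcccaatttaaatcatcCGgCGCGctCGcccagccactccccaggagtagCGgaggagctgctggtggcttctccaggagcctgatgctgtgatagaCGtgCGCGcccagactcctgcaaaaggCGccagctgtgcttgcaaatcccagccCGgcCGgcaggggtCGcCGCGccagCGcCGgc
Scd1: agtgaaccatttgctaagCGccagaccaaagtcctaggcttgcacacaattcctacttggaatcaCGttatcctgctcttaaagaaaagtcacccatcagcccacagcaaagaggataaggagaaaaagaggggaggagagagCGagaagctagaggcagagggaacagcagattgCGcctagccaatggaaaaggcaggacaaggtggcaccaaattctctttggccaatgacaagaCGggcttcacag
Thrsp: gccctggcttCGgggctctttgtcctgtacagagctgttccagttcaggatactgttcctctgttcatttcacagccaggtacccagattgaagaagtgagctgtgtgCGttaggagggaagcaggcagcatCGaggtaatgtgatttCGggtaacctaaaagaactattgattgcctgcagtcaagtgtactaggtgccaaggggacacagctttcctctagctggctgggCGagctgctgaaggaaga
Scd3: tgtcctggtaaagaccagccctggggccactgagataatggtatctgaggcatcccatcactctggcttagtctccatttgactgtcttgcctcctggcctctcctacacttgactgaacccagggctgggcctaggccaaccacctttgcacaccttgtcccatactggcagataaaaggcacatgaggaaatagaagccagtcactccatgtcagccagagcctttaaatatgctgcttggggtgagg

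A larger share of these genes was marked than of all protein-coding genes, which was not tested as a difference. It was 75.0% in WT (95% Wilson interval 59.8 to 85.8%), where 51.3% of all protein-coding genes were marked. In WT + 2HG it was 85.0% (70.9 to 92.9%), with 56.4% of all protein-coding genes, and in CLPP-KO 82.5% (68.1 to 91.3%), with 58.2%. The intervals treat genes as independent and cover counting error only. Of the 40 members, 30 (75.0%) were marked in all 3 lists, beside 50.6% of all protein-coding genes. Of the 10 members unmarked in WT, 4 were marked in WT + 2HG (Acacb, Elovl2, Scd1 and Mogat1), and 11.6% of all protein-coding genes unmarked in WT gained a peak there. In CLPP-KO 3 of the 10 were marked (Acacb, Elovl2 and Scd1), against 14.9%. No member lost its mark, and 1.24% of the protein-coding genes marked in WT were unmarked in at least 1 of the other lists. Elovl3, Scd3, Scd4, Lpin3, Mogat2 and Thrsp had no promoter peak in any list.

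**Figure D1:**
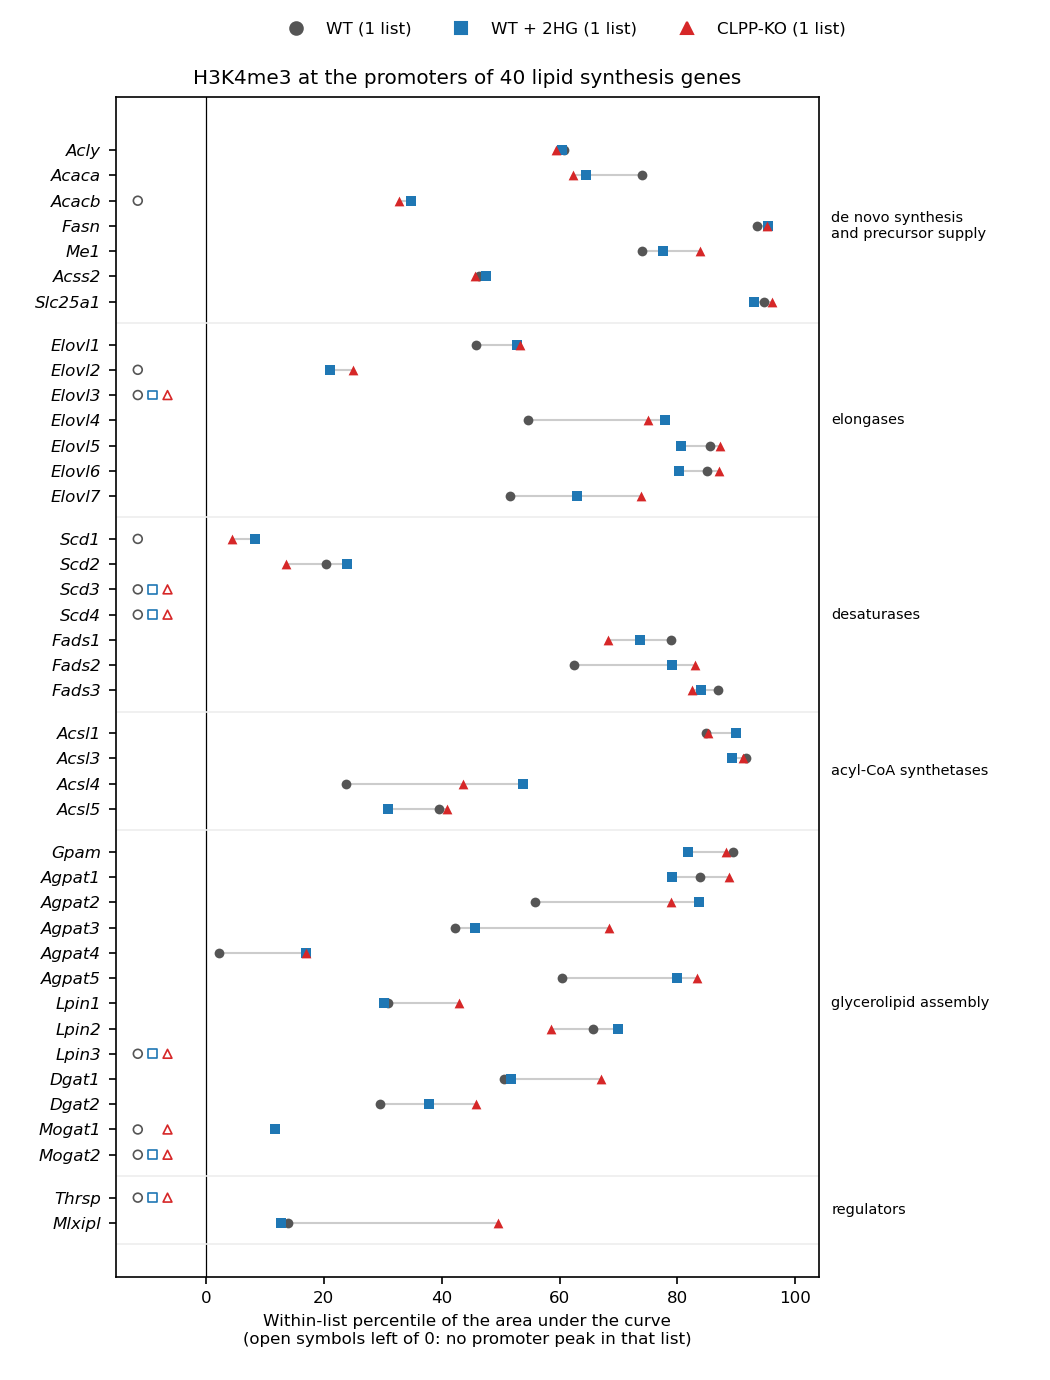
Within-list percentile of the area under the curve for the strongest promoter peak of each of the 40 genes (x axis, percent) in the WT, WT + 2HG and CLPP-KO lists (1 pooled list each, so no error bar), with genes grouped by role and open symbols left of 0 for genes with no promoter peak in that list. Fasn and Slc25a1 lie above 92 in every list, Scd1 and Scd2 below 25, and Mlxipl stands at 13.9 and 12.7 in WT and WT + 2HG and at 49.5 in CLPP-KO.

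Genes of de novo synthesis and precursor supply carried some of the strongest marks of the set. Fasn, which encodes fatty acid synthase (ENSMUSG00000025153.11, chromosome 11), had percentiles of 93.4, 95.3 and 95.1. Its mark had a different shape between lists. WT held 2 peaks, at chr11:120713584-120714999 over the canonical start at 120714935 and at chr11:120715103-120715934 upstream of it, with a gap of 103 bp. Single peaks at chr11:120713959-120715996 in WT + 2HG and chr11:120713658-120716111 in CLPP-KO spanned the gap. The width of the strongest peak was thus 1416, 2038 and 2454 bp, whereas the summed width was 2248 bp in WT, so that the summed width was 0.91 times that of WT in WT + 2HG and 1.09 times in CLPP-KO.

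Slc25a1, the mitochondrial citrate carrier, stood at 94.7, 93.0 and 96.1. Acly, which cleaves citrate in the cytosol (ENSMUSG00000020917.19), had peaks at chr11:100417492-100418741, chr11:100417706-100418799 and chr11:100417725-100419135 and percentiles of 60.8, 60.4 and 59.4. On the within-list percentile these are the closest triplet of the pathway's first steps. On the same-gene scale, however, Acly stood at 51.1, 44.1 and 39.1, and Fasn at 91.5, 93.2 and 92.4. Me1, the cytosolic malic enzyme and a source of NADPH, was at 74.0, 77.5 and 83.8. Acss2, which activates acetate, was at 46.3, 47.6 and 45.6, but different peaks led: chr2:155359886-155360570 in WT, chr2:155356223-155356929 in WT + 2HG and chr2:155359870-155360444 in CLPP-KO. All of its peaks also hold a start of Ggt7, so that they cannot be assigned to Acss2 alone.

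The acetyl-CoA carboxylases make malonyl-CoA. Acaca (ENSMUSG00000020532.20), the cytosolic form, was marked at 2 places, neither of them at its canonical start (84063948 on chromosome 11). One lies 43472 bp upstream of that start and holds a start of Tada2a as well, the other 6736 bp downstream. In WT the downstream peak (chr11:84070518-84071379) led at 73.9 and the upstream peak (chr11:84019820-84020855) was at 47.9. In WT + 2HG the upstream peak (chr11:84019802-84020866) was at 64.5 and the downstream peak (chr11:84070082-84071336) at 63.9, and in CLPP-KO the upstream peak (chr11:84019765-84020900) was at 62.3 and the downstream peak (chr11:84070574-84071488) at 55.7. On the within-list percentile Acaca therefore had the lowest difference of the strongest peak in both comparisons (−11.7 points in CLPP-KO and −9.38 in WT + 2HG) while its upstream start moved up. With only the start at the 5′ end of the gene record counted, the difference was +14.4 points in CLPP-KO and +16.7 in WT + 2HG.

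Acacb (ENSMUSG00000042010.18), the form at the mitochondrial surface, was unmarked in WT. It had peaks of 479 bp at chr5:114313857-114314335 in WT + 2HG (34.8) and 617 bp at chr5:114313831-114314447 in CLPP-KO (32.8). Both cover the start at 114313967 of a protein-coding transcript, 29660 bp downstream of the canonical start, and both reach over 285 bases of annotated exon. The nearest WT peak lay 2730 bp from any Acacb start (chr5:114311166-114311237, percentile 18.1), which is the value closest to the window among the members without a peak. A window of 3000 bp counts it and so takes Acacb out of the genes gained.

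Among the elongases, which add carbon pairs to long chains, 5 of 7 were marked in all lists. Elovl5, which extends polyunsaturated chains, was at 85.5, 80.7 and 87.2, and Elovl6, which extends palmitate (ENSMUSG00000041220.12), at 85.1, 80.3 and 87.1. Elovl5 had a second peak, at a start 6355 bp upstream of its canonical one, at 35.1, 53.4 and 50.0. The peaks of Elovl6 lay inside the gene, at chr3:129326517-129328311, chr3:129327021-129328241 and chr3:129326425-129328244, with summits 1637, 1390 and 1388 bp downstream of the nearest start, the farthest summits among the leading peaks of the set. The ratio of its width to that in WT was 0.68 in WT + 2HG and 1.01 in CLPP-KO. Elovl1, an enzyme of saturated very long chains, was at 45.8, 52.7 and 53.3.

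Elovl4, which makes very long polyunsaturated chains (ENSMUSG00000032262.15), stood higher outside WT: it was at 54.6 in WT (chr9:83687602-83688595), 78.0 in WT + 2HG (chr9:83687568-83688706) and 75.0 in CLPP-KO (chr9:83687599-83688671), with widths of 994, 1139 and 1073 bp. Elovl7 was at 51.7, 62.9 and 73.8, with widths of 781, 1102 and 1210 bp. On the same-gene scale Elovl4 exceeded its WT value by 24.4 points after 2HG and by 17.8 points in CLPP-KO, and Elovl7 by 6.86 and 19.3 points. Elovl2, which extends polyunsaturated chains further (ENSMUSG00000021364.18), was unmarked in WT, where the nearest peak lay 29118 bp away at Smim13. It had a peak of 483 bp in WT + 2HG (chr13:41373408-41373890, 21.2), and in CLPP-KO peaks of 516 bp (chr13:41373389-41373904, 24.9) and 296 bp (chr13:41374026-41374321, 6.0). The smaller CLPP-KO peak covers the canonical start and 209 of the 250 bases printed above. Elovl3, which is known for its induction in brown fat by cold, had no promoter peak, and the closest peak, 3632 to 3658 bp away, is at Pitx3.

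The stearoyl-CoA desaturases, which introduce the first double bond, were weakly marked or unmarked. Scd1 (ENSMUSG00000037071.5), the main form of fat and liver, had no promoter peak in WT, with the nearest 17716 bp away. It had peaks of 342 bp in WT + 2HG (chr19:44395697-44396038, 8.4) and 307 bp in CLPP-KO (chr19:44395666-44395972, 4.5), 302 and 368 bp downstream of the canonical start. Their areas, 399 and 283, are close to the smallest area in the lists, so that Scd1 stood just inside the threshold of peak calling. It is one of the members whose gain is lost when each list is limited to the 12342 strongest peaks. Scd2 (ENSMUSG00000025203.8), a second desaturase with wide expression, was at 20.4 (chr19:44282662-44283249), 23.9 (chr19:44282562-44283259) and 13.6 (chr19:44282710-44283207), and none of these peaks holds an annotated start of the gene. Scd3 and Scd4, whose expression is restricted to few tissues, were unmarked.

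The front-end desaturases Fads1 and Fads2 act on polyunsaturated chains, and together with Fads3 they lie side by side on chromosome 19. All were marked, and Fads1 stood lower outside WT while Fads2 stood higher. Fads1 (ENSMUSG00000010663.7) was at 78.9 (chr19:10160291-10161527), 73.6 (chr19:10160078-10161219) and 68.2 (chr19:10160230-10161689), and Fads2 (ENSMUSG00000024665.10) at 62.4 (chr19:10077937-10079051), 79.1 (chr19:10077860-10079726) and 83.1 (chr19:10077638-10079801). As in Fasn, a second WT peak of Fads2 (chr19:10079308-10079782, 13.8), 256 bp from the first, lies for the most part or wholly inside the single peak of the other lists, which spans the gap. The widths of its strongest peak were 1115, 1867 and 2164 bp, and the summed WT width was 1590 bp. Ranked by summit p instead of area, Fads2 stood below its WT rank, with differences of −19.3 points in WT + 2HG and −2.79 points in CLPP-KO. Fads3 was at 86.8, 83.9 and 82.4.

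The long-chain acyl-CoA synthetases were marked in every list. Acsl1, the main form of adipocytes, was at 84.9, 90.0 and 85.2, and Acsl3, a form found on lipid droplets, at 91.7, 89.2 and 91.1 in a peak that also holds a start of Utp14b. Acsl4, which prefers arachidonate (ENSMUSG00000031278.14, chromosome X), was at 23.9 in WT (chrX:141172740-141173439), 53.8 in WT + 2HG (chrX:141172779-141174017) and 43.7 in CLPP-KO (chrX:141172708-141173467). The difference of 29.9 points after 2HG was the largest of that comparison on the within-list percentile, whereas on the same-gene scale it was 22.03 points, below those of Agpat2 (31.1) and Elovl4 (24.4). The peak was 1.77 times as wide as in WT. It extended over the canonical start, which the WT peak does not reach, and in CLPP-KO a separate peak of 402 bp stood at that start. Acsl5 (ENSMUSG00000024981.8) was at 39.5, 30.9 and 40.8 and grew narrower, with 1143 bp (chr19:55241953-55243095), 837 bp (chr19:55242032-55242868) and 704 bp (chr19:55242295-55242998).

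Triglyceride assembly starts with the acylation of glycerol 3-phosphate and ends with the diacylglycerol acyltransferases. Gpam, the mitochondrial enzyme of the first step (ENSMUSG00000024978.13), was at 89.5 (chr19:55087036-55088305), 81.7 (chr19:55087105-55088176) and 88.2 (chr19:55087071-55088532). All 5 Agpat genes, named for the second acylation, were marked. Agpat1 was at 83.8, 79.0 and 88.7. Agpat2, the form whose loss causes lipodystrophy (ENSMUSG00000026922.15), was at 55.8 (chr2:26493312-26494543), 83.6 (chr2:26493451-26494759) and 78.9 (chr2:26493280-26494820), and its width was 1232, 1309 and 1541 bp. Agpat5 was at 60.5, 80.0 and 83.3, in peaks of 974, 1497 and 1492 bp that extended upstream over the canonical start outside WT.

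Agpat3 and Agpat4 differed in shape as well. Agpat3 (ENSMUSG00000001211.17) was at 42.2 in WT (chr10:78187364-78187967), 45.6 in WT + 2HG (chr10:78187357-78187982) and 68.4 in CLPP-KO (chr10:78187366-78188626). WT + 2HG held a second peak (chr10:78188098-78188703, 35.6) that lies for the most part inside the CLPP-KO peak, and the widths of the strongest peak were 604, 626 and 1261 bp. Agpat4 (ENSMUSG00000023827.10) had the weakest WT peak of the set, with an area of 238 (chr17:12338342-12338668, 2.31). In the other lists the leading peak was at another place, ending 31 and 51 bp upstream of the canonical start, at chr17:12337500-12338011 (17.02) and chr17:12337567-12337991 (16.94), and on the same-gene scale Agpat4 stood at 0.86, 2.50 and 1.93.

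The lipins remove the phosphate to give diacylglycerol. Lpin2 (ENSMUSG00000024052.19) was at 65.7 (chr17:71490565-71491440), 70.0 (chr17:71490159-71491389) and 58.6 (chr17:71490255-71491442), Lpin1, the main form of adipose tissue, at 30.9, 30.2 and 42.9, and Lpin3 was unmarked. The last step belongs to Dgat1 and Dgat2. Dgat1 (ENSMUSG00000022555.14) was at 50.6 (chr15:76395243-76396210), 51.7 (chr15:76395094-76396227) and 67.1 (chr15:76395294-76396363), and Dgat2 (ENSMUSG00000030747.7), which uses newly made fatty acids, at 29.5 (chr7:98831372-98832001), 37.9 (chr7:98831332-98832030) and 45.8 (chr7:98831434-98832017). They thus stood 16.4 and 16.3 points above WT in CLPP-KO, but on the same-gene scale the difference was 10.7 points for Dgat1 and 3.63 for Dgat2. In WT + 2HG it was −6.54 and −0.86 points. The monoacylglycerol acyltransferases belong to an alternative route that is used in the intestine. Mogat1 (ENSMUSG00000012187.14) had 1 peak of 393 bp in WT + 2HG only (chr1:78514310-78514702, 11.7), near the start of a transcript without a defined coding sequence, 25822 bp downstream of the canonical start, and Mogat2 was unmarked.

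Of the regulators, Mlxipl encodes ChREBP, the carbohydrate-responsive activator of lipogenic genes (ENSMUSG00000005373.15). It stood at 13.9 in WT (chr5:135135495-135136182), 12.7 in WT + 2HG (chr5:135135801-135136223) and 49.5 in CLPP-KO (chr5:135135681-135136438). CLPP-KO exceeded WT by 35.6 points, the largest difference of the set on the within-list percentile. On the same-gene scale it was 20.0 points, below those of Agpat5 (23.4), Agpat2 (22.2), Agpat3 (21.7) and Fads2 (20.8). The width was 688, 423 and 758 bp. With a summit p of at most 1e-05 the WT peak of Mlxipl was not counted, and the gene was gained in both comparisons. A further CLPP-KO peak of 370 bp (chr5:135118554-135118923, 4.46) covered a start 17011 bp upstream of the canonical one. Thrsp (ENSMUSG00000035686.10), a lipogenic protein named for its response to thyroid hormone, had no promoter peak in any list, and the nearest peak, at least 16656 bp away, is at Ndufc2.

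**Figure D2:**
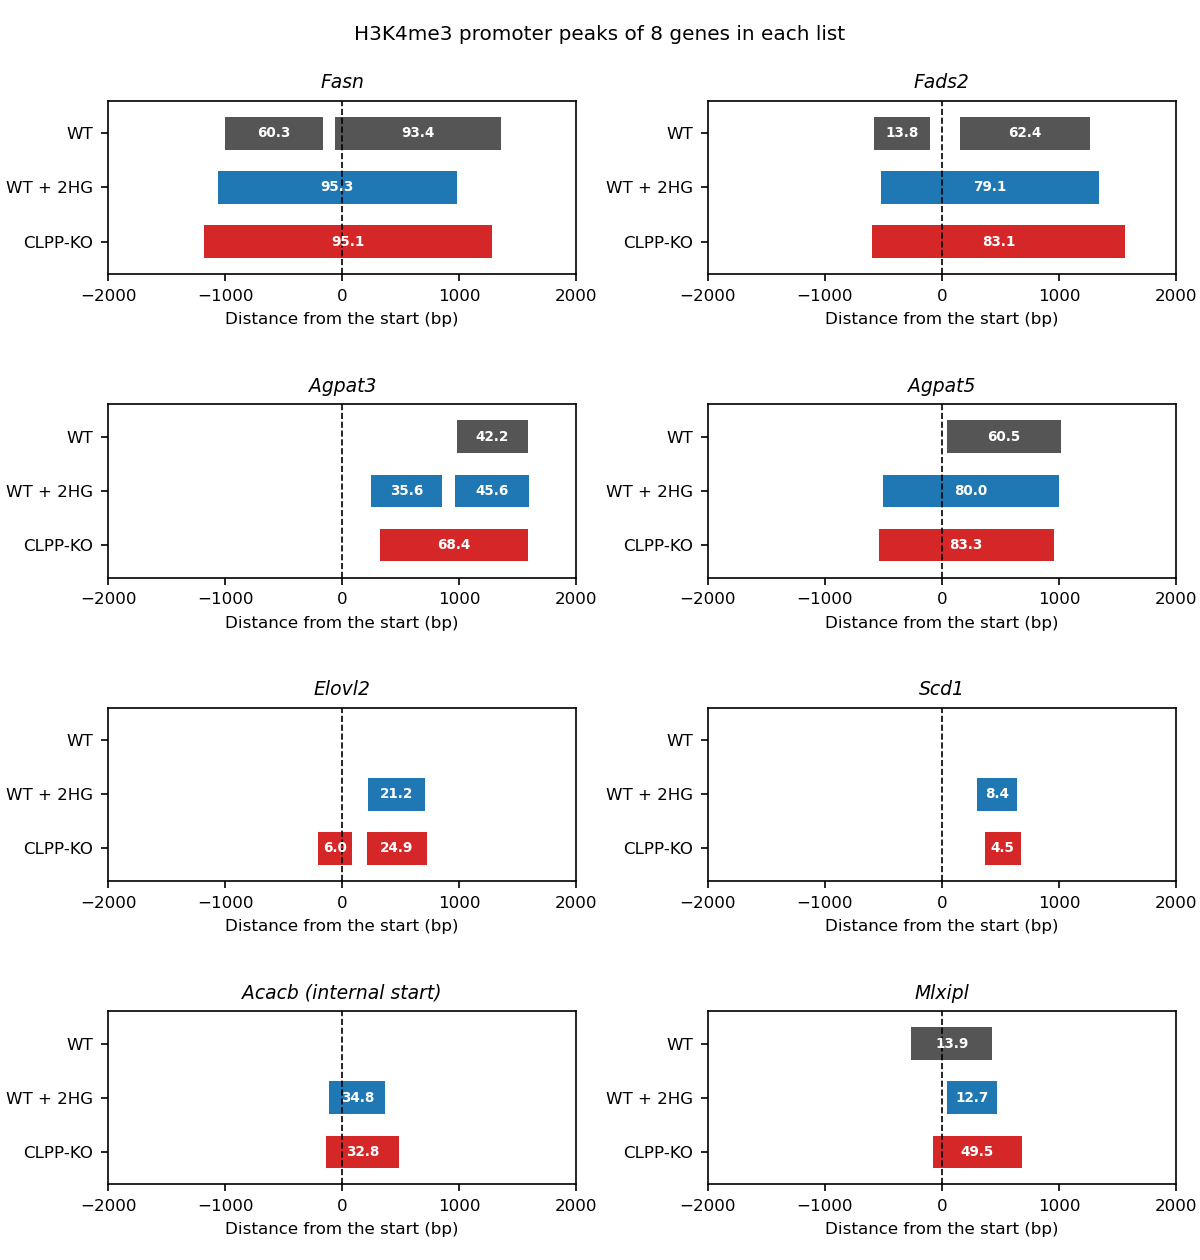
Position of the promoter peaks of 8 genes in each list, drawn to scale as distance in bp from the canonical start in the direction of transcription (for Acacb, from the internal start), with the within-list percentile written in each bar. The WT peaks of Fasn and Fads2 are separated by gaps of 103 and 256 bp that the peaks of the other lists cover, Elovl2, Scd1 and Acacb have no WT bar, and the upstream CLPP-KO peak of Mlxipl lies outside the frame.

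Over the 30 genes marked in all lists the median percentile was 60.6 in WT (95% interval from order statistics 46.3 to 78.9), 71.8 after 2HG (52.7 to 80.0) and 71.1 in CLPP-KO (58.6 to 83.3). The median difference from WT was 3.47 points in CLPP-KO (0.30 to 16.3) and 1.59 points in WT + 2HG (−1.73 to 5.06). Over all 11021 protein-coding genes marked in all lists these medians were 5.30 and 3.69 points, and both exceed those of the 30 genes. With only the start at the 5′ end of the gene record, where 24 members are marked in all lists, the order was the other way round: the median difference was 12.1 points in CLPP-KO (1.40 to 19.8), beside 5.41 for all genes, and 5.98 points in WT + 2HG, beside 3.72. On the same-gene scale the median difference of the 30 genes was 0.050 points in CLPP-KO and −4.98 points in WT + 2HG, beside −0.52 and −0.26 for all genes. These are intervals of the median that treat genes as independent. They describe neither the full range among genes nor the error between cultures.

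In CLPP-KO 12 of the 30 genes stood at least 10 points higher than in WT, beside 36.2% of all such protein-coding genes, and 2 (Acaca and Fads1) at least 10 points lower, beside 6.56%. Of the 12, 7 belong to glycerolipid assembly (Agpat2, Agpat3, Agpat4, Agpat5, Lpin1, Dgat1 and Dgat2), where the median difference over 10 marked genes was 15.5 points, and none to de novo synthesis, where it was 0.36 over 6. Elovl4, Elovl7, Fads2, Acsl4 and Mlxipl made up the rest. This contrast depends on the start counted. With only the start at the 5′ end of the gene record, Acaca and Acss2 of de novo synthesis stood 14.4 and 22.4 points higher. In that setting Acly, Gpam, Agpat3 and Lpin1 were unmarked in WT and had no difference. On the same-gene scale 8 genes were at least 10 points higher, beside 19.5% of all genes, and 7 at least 10 points lower, beside 21.7%. The 8 were Elovl4, Elovl7, Fads2, Agpat2, Agpat3, Agpat5, Dgat1 and Mlxipl, and the 7 were Acly, Acaca, Acss2, Fads1, Fads3, Acsl5 and Lpin2. On this scale the median difference was 3.38 points for glycerolipid assembly and −5.63 points for de novo synthesis. The roles are few genes each, and no difference between them was tested.

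In WT + 2HG 7 of the 30 genes were at least 10 points higher than in WT, beside 32.0% of all genes, and 0 at least 10 points lower, beside 9.74%. They were Elovl4, Elovl7, Fads2, Acsl4, Agpat2, Agpat4 and Agpat5. On the same-gene scale 5 were higher (Elovl4, Fads2, Acsl4, Agpat2 and Agpat5), beside 20.7%, and 4 lower (Acaca, Fads1, Acsl5 and Gpam), beside 21.2%. Single genes also depended on the measure. Ranked by summit p, Gpam stood 9.41 points above WT, Agpat5 6.75 and Acsl4 15.9. Elovl7, at 22.5 points, and Agpat3, at 23.2, stood further above WT than by area. The WT list serves in both comparisons, and a peak that was weak there by chance stands out in both, so that a gene found in both is not found independently.

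**Figure D3:**
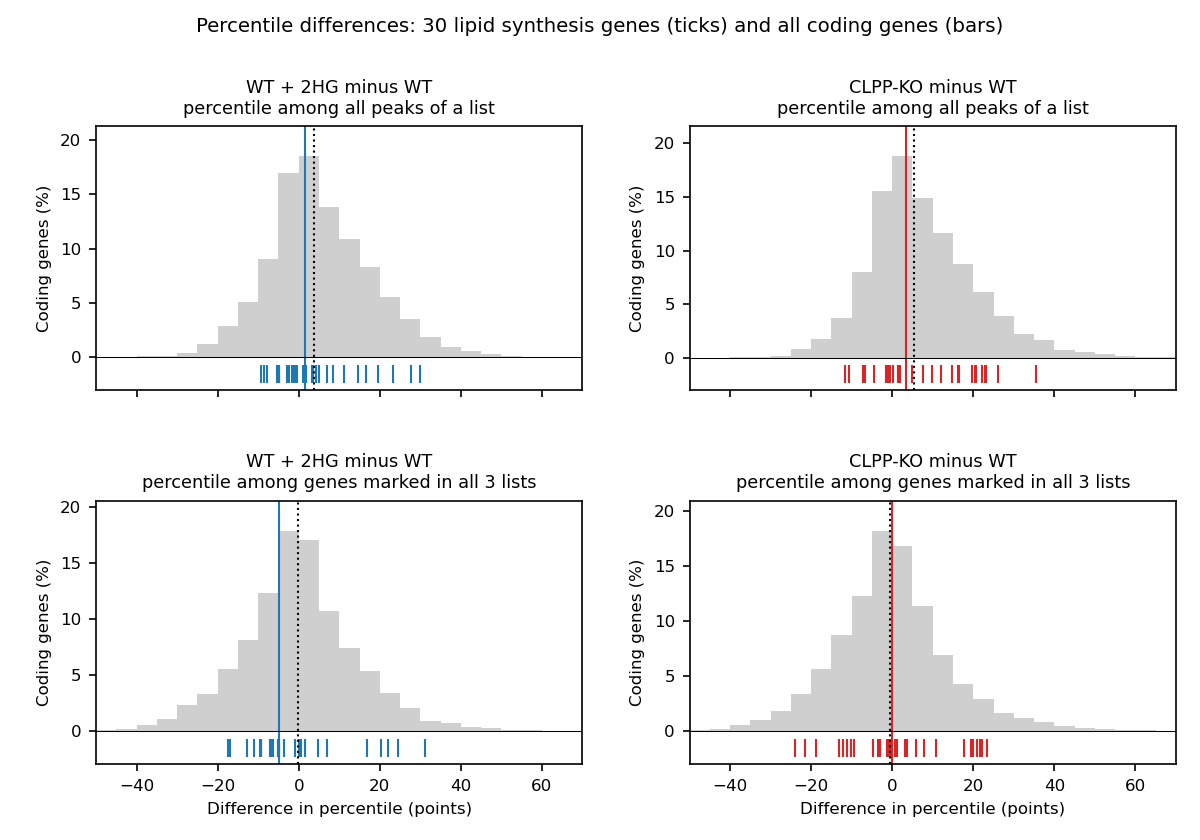
Difference in percentile from WT, in points, for the 30 genes marked in all lists (ticks under the axis, coloured line at their median) and for all 11021 protein-coding genes marked in all lists (grey bars as percent of genes, dotted line at their median), with the within-list percentile above and the same-gene percentile below. In the upper panels both medians lie right of 0 and the median of the 30 genes lies left of that of all genes, and in the lower panels all genes centre near 0.

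Peak width was compared in the same way. The median width of the strongest peak was 1002.5 bp in WT (862 to 1232 bp), 1118 bp after 2HG (1065 to 1231 bp) and 1199 bp in CLPP-KO (1073 to 1445 bp), beside 906, 1054 and 1053 bp for all protein-coding genes marked in all lists. The median ratio to WT was 1.09 in WT + 2HG and 1.12 in CLPP-KO, beside 1.10 in both for all genes. In CLPP-KO 5 genes had a peak at least 1.5 times as wide as in WT, beside 16.0% of all genes: Agpat3 with a ratio of 2.09, Fads2 with 1.94, Fasn with 1.73, Elovl7 with 1.55 and Agpat5 with 1.53. Only Acsl5, with 0.616, was at most 1/1.5 times as wide, beside 1.51%. In WT + 2HG the 4 wider genes were Acsl4 with 1.77, Fads2 with 1.67, Agpat4 with 1.57 and Agpat5 with 1.54, beside 15.9%, and Mlxipl alone was narrower, with 0.615, beside 1.69%. When the widths of all promoter peaks of a gene were summed, 7 genes reached 1.5 in CLPP-KO (Elovl7, Acsl4, Agpat3, Agpat4, Agpat5, Lpin1 and Mlxipl) and 4 in WT + 2HG (Acsl4, Agpat3, Agpat4 and Agpat5). Among all 11021 protein-coding genes marked in all lists, 1569 and 1519 did so, respectively. The CLPP-KO sums of Lpin1 and Mlxipl include weak peaks at starts 64142 and 17011 bp upstream of the canonical one, and that of Lpin1 also holds a start of Ntsr2. Neither Fasn nor Fads2 was among the genes that reached 1.5. Peaks of 2000 bp or more, often called broad domains, were held by 0 members in WT, 1 in WT + 2HG (Fasn) and 2 in CLPP-KO (Fasn and Fads2). Each of these peaks covers 2 WT peaks and the gap between them, and the summed WT width was 2248 bp for Fasn and 1590 bp for Fads2. The share of all protein-coding genes with such a peak is not given here, so these counts are not read as a trait of the set.

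**Figure D4:**
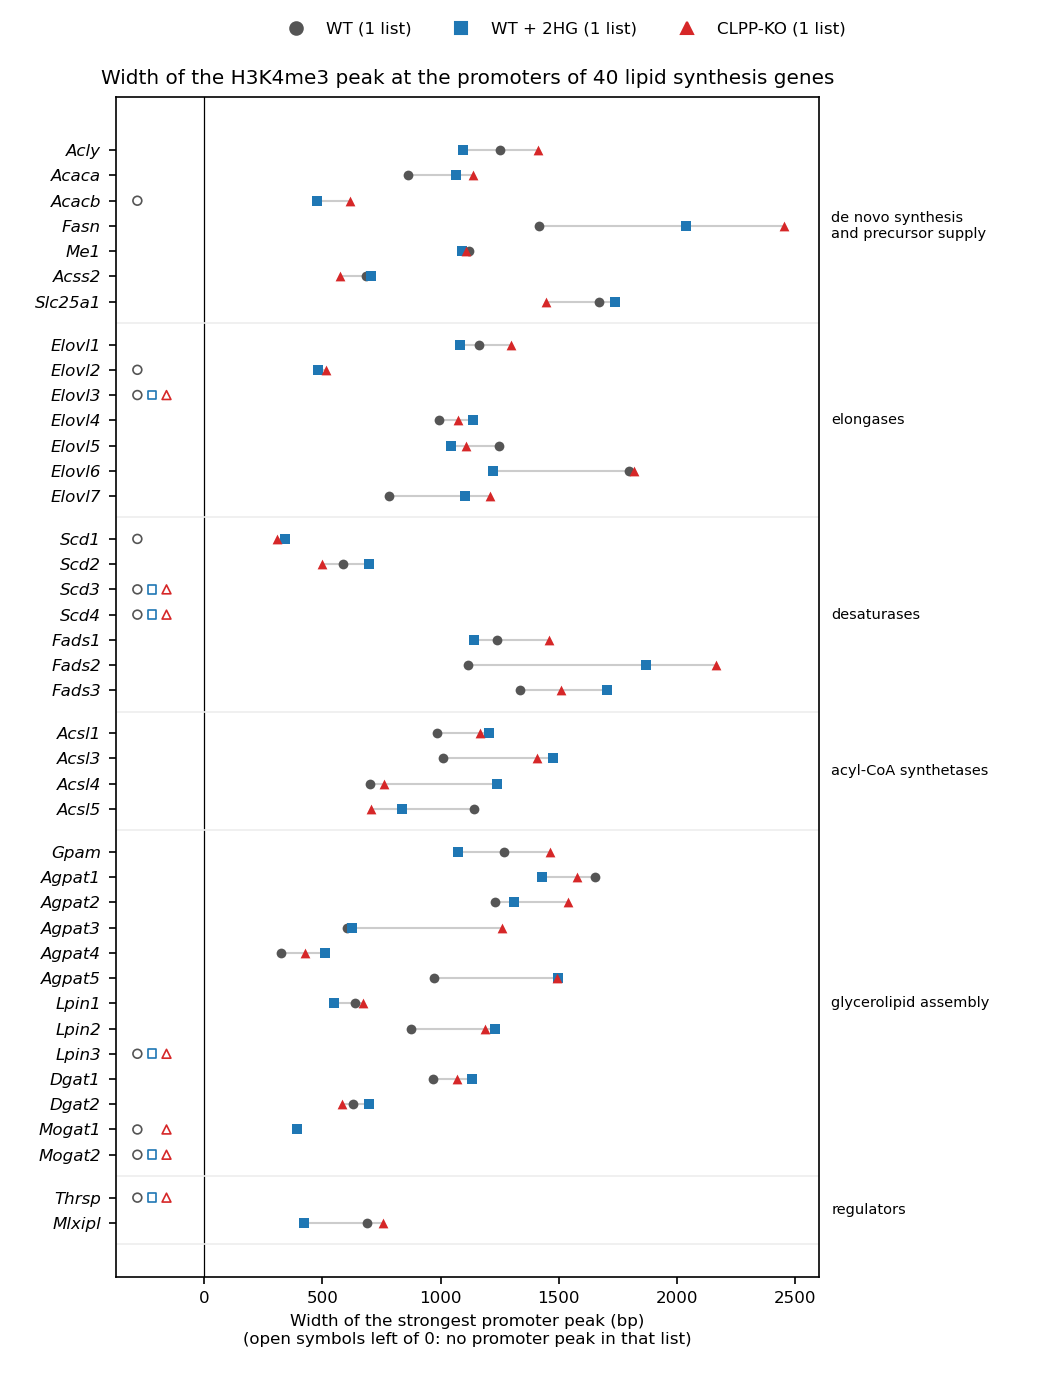
Width in bp of the strongest promoter peak of each of the 40 genes in the 3 lists (1 pooled list each, so no error bar), with open symbols left of 0 for genes with no promoter peak. Fasn is widest outside WT, at 2038 and 2454 bp, and Scd1 and Agpat4 are among the narrowest.

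The distances of the summits from the starts are limited by the rule, which took peaks near a start only. The members held 36, 40 and 44 promoter peaks. For the strongest peak of each marked member, the median distance of the summit from the nearest start of its gene was 196.5, 158.5 and 115.0 bp. The summit of the strongest peak lay within 500 bp of a start in 27 of 30, 32 of 34 and 32 of 33 genes, and downstream of it in 24, 28 and 25. A start of the gene itself was inside the strongest peak in 26, 28 and 29 genes. Several promoter peaks were held by 6, 5 and 10 members, respectively, and the share of all genes with several is not given here. A start of another protein-coding gene was inside the strongest peak for 2, 3 and 3 members, of which Acsl3 with Utp14b and Acss2 with Ggt7 occurred in every list.

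CpG content, which the rule did not use, was lower at the median in the unmarked genes, with overlapping ranges. In the 1000 bp centred on the canonical start the ratio of observed to expected CpG had a median of 0.765 in the 30 genes marked in all lists (quartiles 0.550 and 0.809), 0.453 in the 4 marked in some lists and 0.310 in the 6 unmarked genes (0.221 and 0.479). All protein-coding genes showed the same order, with 0.755, 0.580 and 0.200. There were exceptions on both sides. Agpat3 (0.193) and Acaca (0.198) were marked with a CpG-poor canonical start, but no peak of either gene covered that start. Lpin3 (0.608) and Elovl3 (0.530) were unmarked with more CpG than the upper quartile of all unmarked genes (0.338), and Elovl2 (0.905) was CpG-rich and unmarked in WT.

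**Figure D5:**
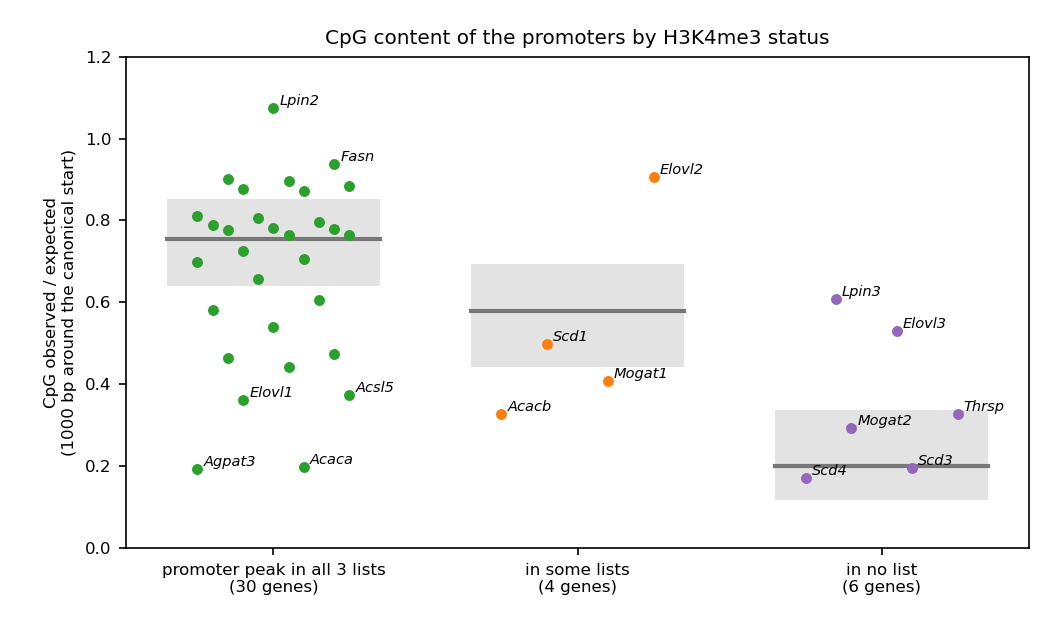
Ratio of observed to expected CpG (y axis, no unit) in the 1000 bp around the canonical start of each gene, by whether it had a promoter peak in all, some or no lists. Points are the 40 genes, grey boxes span the quartiles of all protein-coding genes of the same status and grey lines their medians (0.755, 0.580 and 0.200), and the genes marked throughout reach from 0.193 (Agpat3) to 1.07 (Lpin2), the unmarked ones from 0.171 (Scd4) to 0.608 (Lpin3).

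Short motifs were searched on both strands of the 250 bases before the canonical start of the 40 genes and of all 21770 protein-coding genes. The sterol regulatory element TCACNCCAC, a site of the SREBP activators, was present in 4 members (10.0%), Acaca, Fasn, Acss2 and Mlxipl, and in 1.12% of all promoters. The E-box CACGTG was present in 4 (10.0%, all promoters 6.26%), Acaca, Slc25a1, Agpat3 and Lpin2. The CCAAT box (CCAAT) was found in 35.0% of members and 36.5% of all promoters, the GC box (GGGCGG) in 37.5% and 36.3%, and TATAAA in 5.0% and 11.9%. In Fasn the match TCACCCCAC lies 146 to 138 bases before the canonical start (chr11:120715073-120715081), inside the gap between the WT peaks and inside the single peak of WT + 2HG and of CLPP-KO. In Mlxipl the match TCACACCAC (chr5:135135609-135135617) lay inside the WT peak only. The matches of Acaca and Acss2 lay in no peak of any list. A match of letters is not a binding site.

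A further 38 genes of the same pathways that are not among the 40 were compared. They include the other malic enzymes, synthetases and transporters of fatty acids, the mitochondrial route of synthesis, the partners of the elongases and Mlx, the partner of ChREBP. The marked ones numbered 27, 29 and 28. In CLPP-KO 12 of the 27 marked in all lists were at least 10 points higher than in WT and 1 (Mcat) lower, and in WT + 2HG 6 were higher and 2 lower (Hsd17b12 and Idh1), beside the shares of all genes given above. Mid1ip1, which encodes a partner of Thrsp in the control of acetyl-CoA carboxylase, was at 25.0, 51.0 and 64.5, with widths of 595, 1808 and 1807 bp. Tecr, the last enzyme of the elongation cycle, was at 60.0, 68.3 and 77.2. Gpat3 and Gpat4, the microsomal partners of Gpam, were at 74.7, 69.5 and 65.3 and at 70.3, 69.4 and 83.4, and Slc27a2 gained a peak in both lists while Slc27a6 gained one in WT + 2HG alone.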

How the data were processed

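For each condition, H3K4me3 was profiled in 4 ChIP samples with 1 input. By the methods and the submitters' processing notes, the authors trimmed reads with fastp 0.23.4, mapped them to GRCm39 with BWA-MEM (BWA 0.7.17) and called peaks with Genrich 0.6.1 on the 4 replicates together, combining their p-values by Fisher's method. The notes also name deepTools 3.5.4. The deposited signal values are areas under the curve of −log10 p over each peak. The deposited −log10 p values are those of the summit with replicates combined. The deposited score, limited to 1000 by the peak format, was not used, and the q-value field holds −1 throughout. The stated minimum area was 20, whereas the smallest area in the lists was 200.0. Read depth per sample was not analysed here, so the precision of single peaks is unknown.

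From these lists, peaks overlapping 2000 bp either side of any GENCODE M39 transcript start by at least 1 bp were assigned to the gene with Python 3.11.15, numpy 2.4.6, pandas 2.3.3 and scipy 1.17.1. Starts in the files were converted to count from 1. Gene and peak pairs were checked with bedtools 2.31.1, and the assignment was tested on simulated lists. Figures were drawn with matplotlib 3.10.9. Differences of at least 10 percentile points and width ratios of at least 1.5 were counted, beside all 21770 protein-coding genes. CpG and motifs were read from the GRCm39 sequence, and not every sequence read is reported here. All 40 genes are named, with coordinates for those whose status differs between lists, for the 3 largest and smallest changes per comparison, and for 10 central genes. The alternatives were other windows (1000 and 3000 bp), other choices of start, a stricter summit p, lists of equal length, a rank by summit p, the same-gene percentile, the summit in place of any overlap, and summed peaks. Genes and lists were chosen with earlier results of these data known. Every sample was assigned to a group by its labels, and none was left out.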

Additional observations from a re-analysis of the deposited data

How the results depend on the processing

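No paired analysis was possible because each condition has a single pooled list, and no fit without 1 of the replicates could be made either. Counts were taken as kept within 1.5 times, medians within their interval and values of single genes within 10 points. By these limits, which allow a large relative change of a small difference, 207 of the main results were kept under the alternatives, 22 moved and 3 changed sign, and of the values of single genes 639, 48 and 5 did so. With only the 5′ start of the gene record, 25, 26 and 27 members were marked in WT, WT + 2HG and CLPP-KO. Acly, Gpam, Agpat3, Lpin1 and Mlxipl were then among those unmarked in WT. In this setting 1 member was lost (Acsl5 in CLPP-KO), 1 stood at least 10 points lower in CLPP-KO (all genes 6.55%), and 0 were narrower in either comparison. The median difference was 12.1 points in CLPP-KO (all genes 5.41) and 5.98 in WT + 2HG (all genes 3.72). Only Elovl2 of the 4 gained genes was still gained, Lpin1 and Mlxipl were gained in CLPP-KO, and Acaca turned to 14.4 points in CLPP-KO. With a summit p of at most 1e-05, 0 were narrower in WT + 2HG and the median difference there was 3.58 (all genes 4.91). Scd2, Agpat4 and Mlxipl were then unmarked in WT. Mlxipl was gained in both comparisons and Scd2 and Agpat4 in WT + 2HG, while Scd1 was no longer gained. With every list limited to the size of the shortest, 2 members were gained (Acacb and Elovl2) and 2 lost (Scd2 and Agpat4, in CLPP-KO). The median difference was then −0.12 points in CLPP-KO (all genes −0.51) and −4.08 in WT + 2HG (all genes −0.024). In CLPP-KO 7 members were at least 10 points higher (all genes 18.6%) and 6 lower (all genes 21.7%). In WT + 2HG 5 were lower (all genes 20.0%), and Lpin1 stood at −0.76 in CLPP-KO. Ranked by summit p, 4 members were lower in CLPP-KO and 5 in WT + 2HG, the median difference was 6.44 in CLPP-KO and 7.80 in WT + 2HG (all genes 7.67 and 5.51), and Fads2 stood at −2.79 and −19.3, respectively. On the same-gene scale the median percentile in CLPP-KO was 56.0, and the median differences were 0.050 in CLPP-KO and −4.98 in WT + 2HG (all genes −0.52 and −0.26). There 7 and 4 members were lower (all genes 21.7% and 21.2%), and Lpin1 stood at −0.66 in CLPP-KO. With all promoter peaks summed, genes were ranked among the marked protein-coding genes of a list and not among its peaks, so the scale differs. There 1 member was lower in WT + 2HG (all genes 11.8%), and the median difference was 7.11 in CLPP-KO and 2.52 in WT + 2HG (all genes 3.59 and 2.87). With only the canonical start, an alternative chosen after seeing the data, 2 members were gained (Elovl2 and Scd1) and 1 was lower in each comparison (all genes 6.61% in CLPP-KO and 9.91% in WT + 2HG). A second such alternative, without peaks that hold a start of another protein-coding gene, left 28, 32 and 31 members marked in WT, WT + 2HG and CLPP-KO, with median differences of 6.19 in CLPP-KO and 2.61 in WT + 2HG (all genes 5.93 and 4.16). For counts without a share of all genes beside them, that share is not given here. Such counts are not read as a trait of the members. Beyond the construction of each alternative, the cause of these shifts was not tested. The pooled lists carry no error between cultures, which limits every difference above.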
